A study of Mus musculus with 3 samples.

Results

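The complement genes described here are 9 mouse symbols: C1qa, C1qb, C1qc, C2, Cfb, C3, Cfi, Serping1 and Cd55. Members were the single-gene probe sets of these symbols in the platform annotation, and 8 of the 9 genes had one, each with 1 probe set, among 19938 genes in all. C3, the central component of the cascade, was not analysed here. Of the 8 measured genes, 7 were above the level floor in at least 1 array. The floor of an array is the median over its single-gene probe sets, at log2 5.30 in beta cells, 5.24 in Fbw7-deleted ductal cells and 5.23 in wild-type ductal cells. About 50% of single-gene probe sets are therefore above the floor in each array.

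Complement is a cascade of plasma and tissue proteases and their cofactors that marks and lyses targets and recruits leukocytes. The classical pathway starts when C1q, built of A, B and C chains, binds immune complexes or damaged surfaces, and its convertase contains the protease C2. The alternative pathway uses the protease factor B instead, and both convertases cleave C3. Much plasma complement is made by the liver, C1q is made mainly by macrophages and related cells, and epithelial and mesenchymal cells can make several other components locally.

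RNA was measured on 3 arrays, 1 for each pool of sorted pancreatic cells from adult C57BL/6 mice over 6 weeks of age. The beta cells came from 3 untreated mice, Fbw7 +/+; MIP-GFP, in which an insulin promoter drives GFP. The deleted ductal cells came from 6 mice, both Fbw7 alleles floxed (Fbw7 F/F), and the wild-type ductal cells from 6 mice with Fbw7 +/+. Both kinds of mice carried Ck19-CreERT, a tamoxifen-inducible Cre, with the reporter R26-LSL-YFP. Both ductal groups received tamoxifen on 5 consecutive days and were collected 7 days after the last dose, so YFP marks any cell in which the Ck19-driven Cre was active. Cell type, reporter and tamoxifen differ together between the beta cell array and the ductal arrays and cannot be told apart.

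No group has a second array, so differences stand without a measure of spread or a test, and the number of arrays limits the precision. Levels are deposited log2 intensities, and each difference is a difference of log2 levels. The targeted gene, Fbxw7, had 2 probe sets; the first read 4.95 in all 3 arrays, and the second read 7.00 in beta cells, 5.71 in deleted and 6.32 in wild-type ductal cells. No source used here places these probes against the floxed exons, so their levels do not check the deletion. The sorted pools carried signal of several cell types. Duct markers above the floor numbered 9 of 13 in beta cells, 11 in deleted and 10 in wild-type ductal cells, beta cell markers 7 of 9 in beta cells and 3 of 9 in each ductal array, and acinar markers 10 of 12 in each. Summed over markers, the acinar signal was log2 15.27 in beta cells, 14.85 in deleted and 13.48 in wild-type ductal cells. It exceeded the summed beta cell signal of 11.76 in beta cells. It also exceeded the summed duct signal of 12.53 in deleted and 11.57 in wild-type ductal cells. The lists differ in genes and length, so these sums give no shares of cell types. All 10 mesothelial markers were above the floor in both ductal arrays, against 5 of 10 in beta cells, where about 50% of all single-gene probe sets are. In pooled sorted cells, fewer cells of a type and less RNA per cell cannot be told apart.

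**Figure D1:**
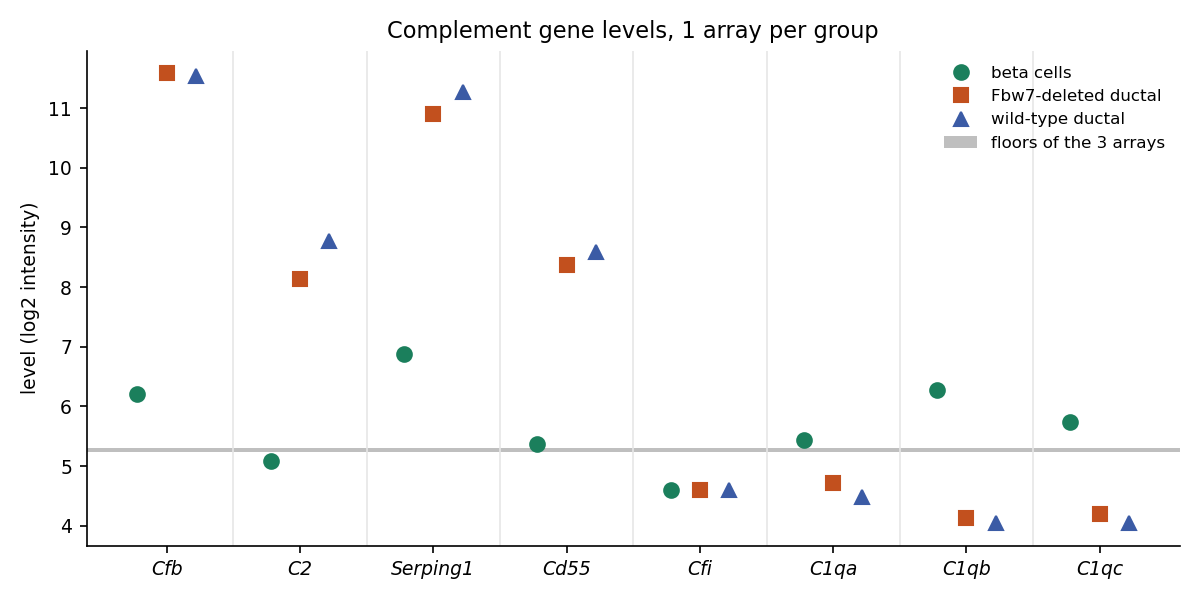
Level (log2 intensity) of each measured complement gene in the 3 arrays; circles are beta cells, squares Fbw7-deleted ductal cells and triangles wild-type ductal cells, and the grey band spans the floors of the arrays. Cfb, C2, Serping1 and Cd55 sit between 8.14 and 11.58 in the ductal arrays, the C1q chains are above the floor in beta cells alone, and Cfi reads 4.60 in every array.

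The comparison of Fbw7-deleted with wild-type ductal cells asks whether complement transcripts differ once Fbw7, the substrate-recognition part of a ubiquitin ligase, is deleted. The deletion is in cells in which the Ck19-driven Cre was active. Convertase and inhibitor genes read at similar levels in both ductal arrays, and the C1q chains and Cfi were below the floor in both. None of the 4 members that entered was at least 2-fold apart, where 3.25% of 10035 genes were (1.43% higher and 1.81% lower), so a count of 0 of 4 is near the background. Their median difference was -0.29, beside 0 over all genes, and with no floor the median over all 8 measured members was 0.02, so no direction is given for it.

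C2, the protease subunit of the classical and lectin convertases, read 8.14 in deleted and 8.78 in wild-type ductal cells. It was 1.56-fold lower in deleted cells, the most negative difference of the 4 members at -0.64. This lies inside the 5th and 95th percentiles over all genes, -0.70 and 0.36, and 606 genes had a lower difference. Cfb, factor B, the protease of the alternative pathway convertase, read 11.58 in deleted and 11.54 in wild-type cells. Its difference of 0.05 turned to -0.05 after quantile normalization, so no direction is given.

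The inhibitors lay between C2 and Cfb. Serping1, the C1 inhibitor, a serpin that inactivates C1r, C1s and the lectin pathway proteases, read 10.90 in deleted and 11.27 in wild-type cells, a difference of -0.36. Cd55, decay-accelerating factor, a membrane protein that breaks up C3 convertases, read 8.36 in deleted and 8.58 in wild-type cells, a difference of -0.22. Cfi, factor I, the protease that degrades C3b and C4b, read 4.60 in all 3 arrays. Values that are exactly equal in all 3 arrays are common in these files and were found for 16.1% of probe sets. With the ductal arrays alone compared, exact equality held for 47.2% of probe sets. For the beta cell array it held for 17.7% against the wild-type ductal array and 19.2% against the deleted one.

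The C1q chains were too low in the ductal arrays to be compared between them. C1qa read 4.71 in deleted and 4.48 in wild-type ductal cells, C1qb 4.13 in deleted and 4.05 in wild-type cells, and C1qc 4.20 in deleted and 4.04 in wild-type cells, all below the floor. Across the lists of cell type markers, duct genes had a median difference of 0.96 over 11 genes, acinar genes 1.61 over 10, mesenchymal genes -0.69 over 10 and mesothelial genes 0.03 over 10. The part of these lists in the small differences of C2, Serping1 and Cd55 was not tested.

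Beta cells set against wild-type ductal cells differed far more. Of the 7 members that entered, 4 were at least 2-fold lower in beta cells, Cfb, Serping1, C2 and Cd55, where 25.8% of 11139 genes were. A further 2, C1qb and C1qc, were at least 2-fold higher, where 6.37% of genes were. The median over the 7 was -3.22, beside -0.11 over all genes, and it describes neither of these sets of genes.

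Cfb read 6.20 in beta cells and 11.54 in wild-type ductal cells, 40.4-fold lower in beta cells. Only 14 of the 11139 genes had a lower difference than its -5.34. Serping1 read 6.89 in beta cells and 11.27 in wild-type ductal cells, 20.9-fold lower in beta cells, and 50 genes had a lower difference. Both genes were above the floor in beta cells, so the reading there is a level and not a bound.

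C2 read 5.09 in beta cells, below the floor, and 8.78 in wild-type ductal cells, which makes it at least 11.1-fold lower in beta cells. C2 and Cfb are neighbouring protein-coding genes on chromosome 17 in the RefSeq annotation. Cd55 read 5.36 in beta cells, just above the floor, and 8.58 in wild-type ductal cells, 9.30-fold lower in beta cells. The difference of C2 was -3.69, with 1.17% of genes lower, and that of Cd55 -3.22, with 2.37% lower. With a loess trend on the mean level removed the differences were smaller, -3.79 for Cfb, -2.86 for Serping1, -2.88 for C2 and -2.38 for Cd55, and all 4 genes stayed at least 4-fold lower in beta cells.

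Of the C1q chains, C1qb and C1qc were higher in beta cells, and C1qa was within 2-fold. C1qb read 6.28 in beta cells and 4.05 in wild-type ductal cells, a difference of 2.23 that 78 genes exceeded, and against the floor it was at least 2.07-fold higher in beta cells. C1qc read 5.73 in beta cells and 4.04 in wild-type ductal cells, a difference of 1.69, and C1qa read 5.44 in beta cells and 4.48 in wild-type ductal cells, a difference of 0.96. Against the floor the folds of C1qc and C1qa were at least 1.41 and at least 1.15, so C1qb alone of the chains was 2-fold apart when low levels were raised to the floor. With the loess trend removed the difference of C1qc was 0.69 and that of C1qa 0.09. The 3 genes lie next to each other on chromosome 4, in the order C1qb, C1qc and C1qa.

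**Figure D2:**
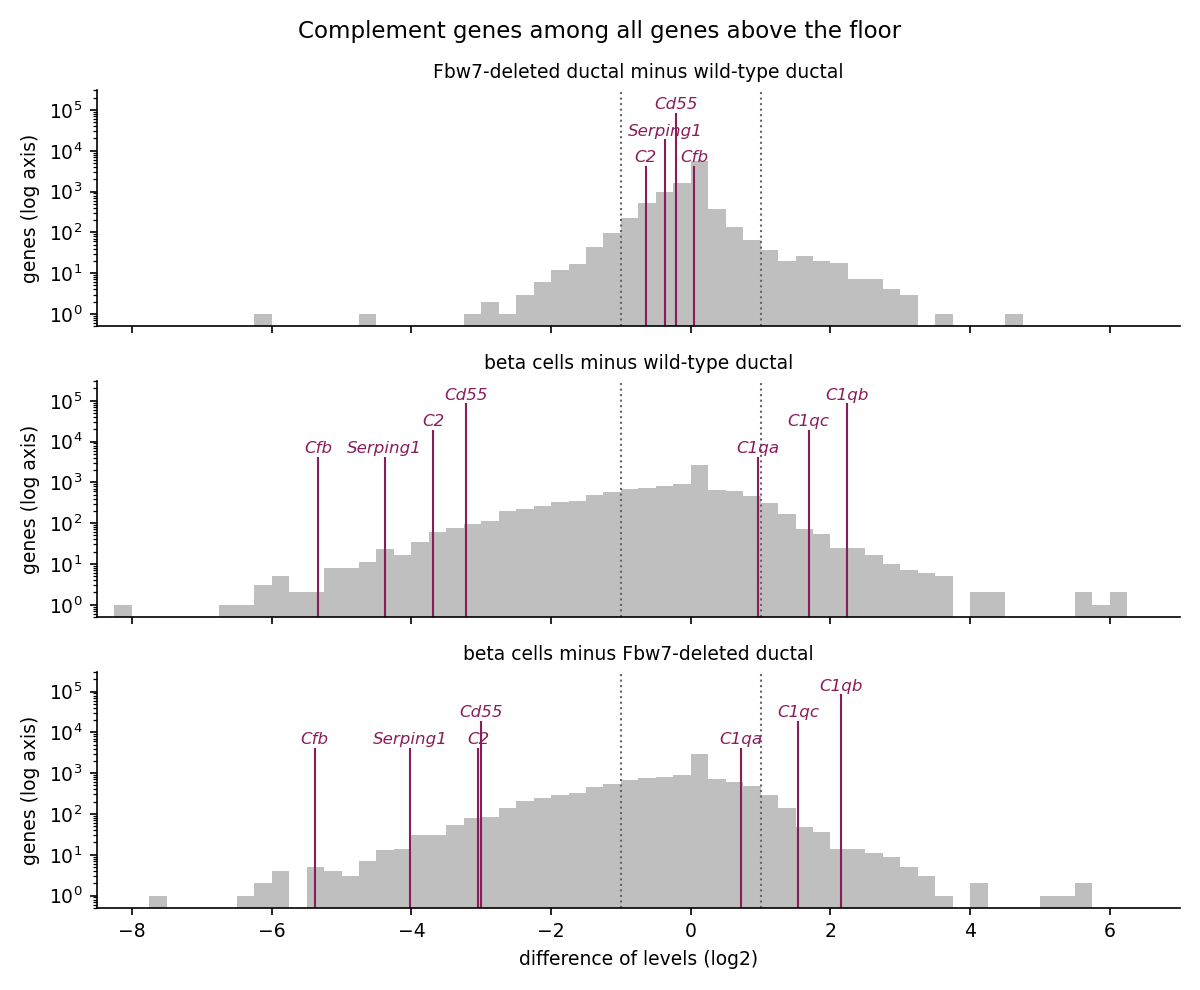
Differences of levels (log2) in the 3 comparisons, with the number of genes per bin of all genes above the floor in grey on a log axis, labelled lines for the complement genes and dotted lines at 2-fold. Cfb, Serping1, C2 and Cd55 lie in the lower tail of both beta cell comparisons and C1qb and C1qc in the upper tail, while the 4 genes that entered lie between -0.64 and 0.05 in the comparison of the ductal arrays.

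Against Fbw7-deleted ductal cells the same 7 genes entered, and this comparison shares the beta cell array with the one above. Again 4 members were at least 2-fold lower in beta cells, where 23.0% of 11095 genes were, and 2 were at least 2-fold higher, where 5.13% of genes were. Cfb was 41.7-fold lower in beta cells (6.20 in beta and 11.58 in deleted ductal cells), with 9 genes lower, and Serping1 16.2-fold lower (6.89 in beta and 10.90 in deleted ductal cells). C2 was at least 7.12-fold lower and Cd55 8.01-fold lower. C1qb was at least 2.06-fold higher, C1qc at least 1.41-fold and C1qa at least 1.15-fold higher in beta cells. The median over the 7 members was -3.00, beside -0.05 over all genes.

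Upstream sequences are shown for C1qb, C1qc and Cd55, the measured members for which a promoter sequence was available. C1qb and C1qc were above the floor in beta cells and below it in both ductal arrays. Cd55 was above the floor in all 3 arrays and lower in beta cells. The sequences come from a set of RefSeq promoters on build GRCm38.p6 that held 3 of the 8 measured members. Each gives the 250 bases before the gene start on the gene's own strand, 5′ to 3′. C1qb lies at chr4:136886201-136886450, C1qc at chr4:136892915-136893164 and Cd55 at chr1:130462745-130462994, all on the minus strand. Capitals mark matches to 5 short motifs that were searched on both strands.
C1qb: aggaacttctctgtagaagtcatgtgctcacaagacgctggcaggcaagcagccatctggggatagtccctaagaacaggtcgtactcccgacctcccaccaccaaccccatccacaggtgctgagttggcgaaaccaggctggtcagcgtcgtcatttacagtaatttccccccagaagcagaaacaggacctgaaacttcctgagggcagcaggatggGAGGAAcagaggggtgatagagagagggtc
C1qc: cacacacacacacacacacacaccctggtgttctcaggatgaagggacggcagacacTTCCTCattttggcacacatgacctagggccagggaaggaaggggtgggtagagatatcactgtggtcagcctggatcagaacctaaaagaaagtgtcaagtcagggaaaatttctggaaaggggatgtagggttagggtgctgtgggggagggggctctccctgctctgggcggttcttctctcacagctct
Cd55: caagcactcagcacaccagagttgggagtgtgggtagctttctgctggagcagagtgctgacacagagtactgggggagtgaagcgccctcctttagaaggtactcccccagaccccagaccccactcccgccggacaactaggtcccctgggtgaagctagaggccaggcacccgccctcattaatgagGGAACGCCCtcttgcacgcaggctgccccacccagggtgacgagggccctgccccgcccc

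The motifs were TTCNNNGAA, the core bound by STAT dimers, GAAANNGAA, of interferon response elements, GGGNNTTCC, of NF-kB sites, TTGCNNAA, of C/EBP sites, and GAGGAA, a core of sites of ETS factors such as PU.1. GAGGAA was found in C1qb, 30 to 25 bases before the start, and on the opposite strand in C1qc, 193 to 188 bases before it. This short motif was found in 23.3% of the 32851 upstream sequences of the same length. Cd55 held GGGNNTTCC, on the opposite strand 60 to 52 bases before the start, a motif found in 4.98% of them. The other 3 motifs, found in 7.02%, 7.13% and 9.56% of sequences, had no match in these windows. No 2 matches overlapped, and a match describes the letters only.

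Other genes of the cascade were taken from a list of 45, of which 42 were measured and 17 were above the floor in at least 1 array. Between deleted and wild-type ductal cells, 11 of them entered and 0 were at least 2-fold apart, where 3.25% of all genes were. Their differences ran from -0.67 to 0.83, and 2 of them were identical. Of all 10035 genes that entered, 3551 had a difference below 0 and 1643 one above 0, and the rest were identical. In beta cells against wild-type ductal cells, 17 of the 42 measured pathway genes entered, beside 11139 of all 19938 genes. Among those 17 pathway genes, 7 were at least 2-fold lower, where 25.8% of all genes were, and 4 higher, where 6.37% were. Against deleted ductal cells 16 entered, 4 were lower, where 23.0% of all genes were, and 3 higher, where 5.13% were. Their medians in the beta cell comparisons were -0.75 and -0.08.

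Among early classical and lectin genes, C1s1, the protease that cleaves C4 and C2, read 4.39 in beta cells, 10.25 in deleted and 10.17 in wild-type ductal cells. It was at least 29.1-fold lower in beta cells than in wild-type ductal cells. C4b, which encodes complement component C4, read 5.60 in beta cells, 8.06 in deleted and 8.58 in wild-type ductal cells, 7.92-fold lower in beta cells than in the wild-type ductal array. Both followed the pattern of C2 and Cfb, high in the ductal arrays and low in beta cells.

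C1ra, the protease that activates C1s, and its relative C1rl were closer between the arrays. C1ra read 6.34 in beta cells, 6.68 in deleted and 7.35 in wild-type ductal cells, and C1rl read 5.72 in beta cells, 6.27 in deleted and 6.91 in wild-type ductal cells. Both were at least 2-fold lower in beta cells than in wild-type ductal cells, by 2.02-fold and 2.27-fold, and within 2-fold of deleted ductal cells. Colec11, a collectin of the lectin pathway, was higher in beta cells, at 6.30 against 5.29 in deleted and 4.97 in wild-type ductal cells. Its wild-type level was below the floor, which makes it at least 2.09-fold higher in beta cells. Against deleted ductal cells, with a level just above the floor, it was 2.01-fold higher. C1ra, C1s1 and C4b have close paralogs in the mouse, C1rb, C1s2 and C4a, with which probes can share signal.

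Of the regulators, Clu, clusterin, which binds the terminal complex in fluid, read 8.53 in beta cells, 11.71 in deleted and 10.88 in wild-type ductal cells. Its difference between the ductal arrays, 0.83, was the highest of the 11 pathway genes that entered, a 1.78-fold difference. Cr1l, the mouse membrane regulator Crry, read 5.76 in beta cells, 7.34 in deleted and 7.76 in wild-type ductal cells, 2.99-fold lower in beta than in deleted and 3.99-fold lower than in wild-type ductal cells. Both membrane regulators of the convertases that were above the floor, Cd55 and Cr1l, were therefore lower in beta cells. Cd59a, which blocks the membrane attack complex, read 3.49 in beta cells, 5.16 in deleted and 5.43 in wild-type ductal cells, with the wild-type level near the floor, so that it was at least 1.09-fold lower in beta cells than there. Vtn, vitronectin, another inhibitor of the terminal complex, was higher in beta cells, at 6.57 against 5.68 in deleted and 5.33 in wild-type ductal cells.

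Of the 10 measured receptor genes, 4 were above the floor in at least 1 array. C1qbp, which encodes a C1q-binding protein found largely in mitochondria, was above the floor in all 3 arrays, identical in both ductal arrays and at a difference of -0.75 in beta cells against either. It was named after its values were seen, as was Itgb2, at 5.45 in beta cells and 4.71 in both ductal arrays. C3ar1, the C3a receptor, read 5.52 in beta cells, 3.68 in deleted and 4.27 in wild-type ductal cells, and C5ar1, the C5a receptor, read 5.61 in beta cells, 4.40 in deleted and 4.08 in wild-type ductal cells. C3ar1 and C5ar1 were above the floor in beta cells alone, and against the floor C3ar1 was at least 1.22-fold and C5ar1 at least 1.30-fold higher there than in wild-type ductal cells. None of the 7 terminal component genes was above the floor in any array, and neither was Cfp, the 1 measured gene of the alternative pathway list, which was named after its values were seen.

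**Figure D3:**
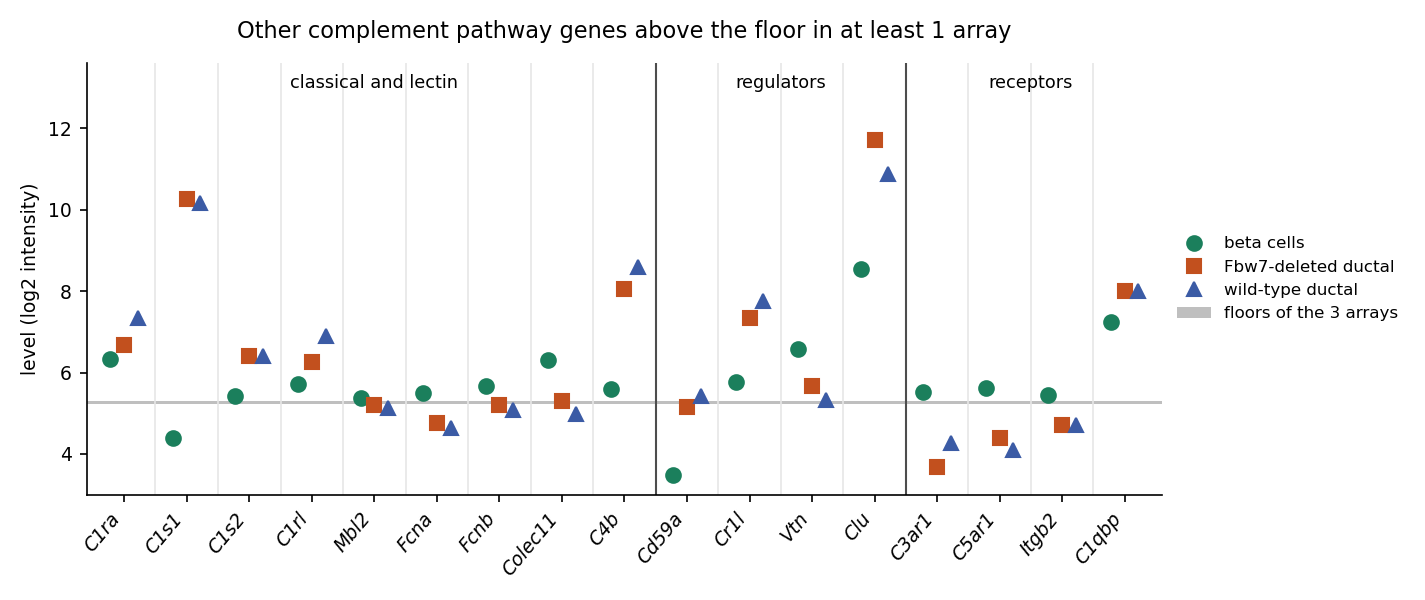
Level (log2 intensity) of the 17 other complement pathway genes above the floor in at least 1 array; circles are beta cells, squares Fbw7-deleted ductal cells, triangles wild-type ductal cells, and the grey band spans the floors. C1s1, C4b, Cr1l and Clu are higher in both ductal arrays than in beta cells, and C3ar1 and C5ar1 are above the floor in beta cells alone.

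Marker lists of cell types were set beside both sets of members. In beta cells against wild-type ductal cells, all 10 mesothelial markers were at least 2-fold lower, with a median of -5.15. Of 10 mesenchymal markers, 8 were at least 2-fold lower, with a median of -2.25. Over all genes this share was 25.8%. The summed mesothelial signal was log2 8.72 in beta cells, 13.33 in deleted and 13.38 in wild-type ductal cells, and the summed mesenchymal signal 10.77 in beta cells, 12.66 in deleted and 13.30 in wild-type ductal cells. The summed duct signal was 10.11 in beta cells, 12.53 in deleted and 11.57 in wild-type ductal cells, below both of these sums in each ductal array. The lists differ in genes and length, so the order of the sums gives no shares of cell types. Cfb, Serping1, C2 and Cd55 were lower in beta cells in the same arrays, as were 6 of 10 duct markers, with a median of -1.65. Against deleted ductal cells, 11 of 11 duct markers were at least 2-fold lower in beta cells (median -2.45), where 23.0% of all genes were. All 10 mesothelial markers were lower too, with a median of -5.25, and 8 of 10 mesenchymal markers, with a median of -1.59. The part of each cell type in these levels was not tested.

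Macrophage markers were above the floor for 10 of 19 genes in beta cells, 3 in deleted and 3 in wild-type ductal cells. With the floor at the median, about 50% of all single-gene probe sets are above it in each array. The count in beta cells is near that share, and the counts in the ductal arrays are below it. Of the 10 that entered against wild-type ductal cells, 7 were at least 2-fold higher in beta cells and 1 was at least 2-fold lower. Over all genes these shares were 6.37% and 25.8%. Csf1r, at 6.31 in beta cells and 5.83 in both ductal arrays, was within 2-fold. So was Cd68, at 5.91 in beta cells, 5.68 in deleted and 5.89 in wild-type ductal cells. Tyrobp, a myeloid adaptor, read 7.36 in beta cells, 4.97 in deleted and 4.77 in wild-type ductal cells, and Lyz2, a myeloid lysozyme, read 6.73 in beta cells, 3.08 in deleted and 3.02 in wild-type ductal cells. Adgre1, a defining macrophage surface receptor, was below the floor in all 3 arrays, at 4.62 in beta cells, 3.12 in deleted and 3.10 in wild-type ductal cells. Cd14 went the other way, at 5.79 in beta cells against 9.60 in deleted and 9.76 in wild-type ductal cells, and the summed macrophage signal, Cd14 included, was 10.02 in beta cells, 10.19 in deleted and 10.29 in wild-type ductal cells. Other leukocyte markers were above the floor for 4 of 13 genes in beta cells and for 0 in either ductal array, with summed signals of 9.18 in beta cells, 7.88 in deleted and 7.83 in wild-type ductal cells. Endothelial markers were above the floor for 8 of 10 genes in beta cells and 3 of 10 in each ductal array. In beta cells against wild-type ductal cells, 4 of 8 endothelial markers that entered were at least 2-fold higher, with a median of 1.07, and 8 of 10 acinar markers, with a median of 2.40. C1qa, C1qb and C1qc were above the floor in the beta cell array alone, and the part of each of these cell types in their levels was not tested.

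**Figure D4:**
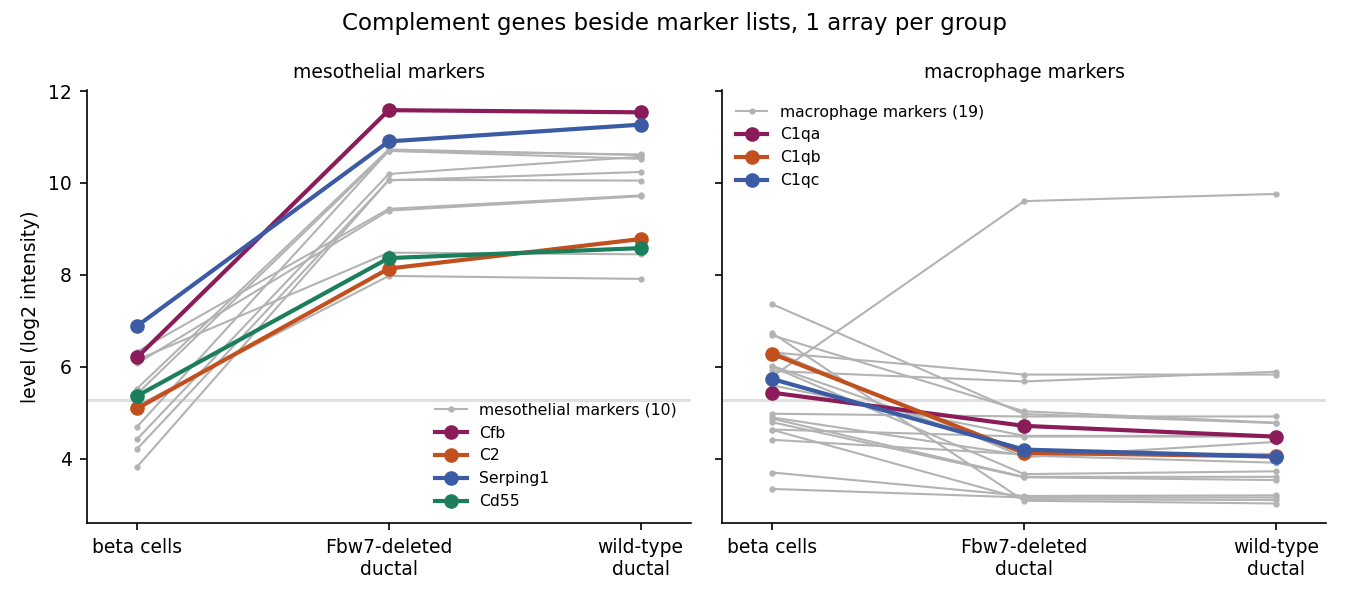
Levels (log2 intensity) in beta cells, Fbw7-deleted and wild-type ductal cells, with markers as thin grey lines and complement genes as thick lines; the light band spans the floors. Left, Cfb, C2, Serping1 and Cd55 are lower in beta cells beside 10 mesothelial markers, all lower there; right, C1qa, C1qb and C1qc are higher in beta cells beside 19 macrophage markers, of which Cd14 is high in both ductal arrays.

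The genes whose pattern over the 3 arrays lay nearest to each member were found by the Euclidean distance between pairs of differences, deleted minus wild-type ductal and beta minus wild-type ductal. For Cfb the nearest of 9767 genes was Upk3b, a uroplakin and one of the mesothelial markers, at a distance of log2 0.13, followed by Mgst1, a microsomal glutathione transferase, at 0.21. Upk3b was also the only gene within log2 0.20 of Cfb. Only 14 of 11139 genes had a lower difference than Cfb between beta and wild-type ductal cells. Few genes could therefore lie near Cfb, and the number within a fixed distance depends on a member's place in the tail. For Serping1 the nearest were Osr1, a zinc finger factor, at 0.05, and Ssr3, a subunit of the translocon-associated complex, at 0.08, with 6 genes within 0.20.

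Patterns near the other members were shared by more genes. C2 had 26 genes within 0.20, led by Ctsb, a lysosomal protease, and Polr2g, an RNA polymerase II subunit, both at 0.05. Cd55 had 40, led by Rap2a, a small GTPase, at 0.01, and Scarb2, a lysosomal membrane protein, at 0.03. For C1qb and C1qc no nearest genes are given, because their ductal levels were below the floor and such distances would rest on readings there. The beta cell level of C2, and those of Polr2g, Rap2a, Scarb2 and Mgst1, were below the floor too, so their distances rest in part on such readings. The distance rests on 3 arrays.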

How the data were processed

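The authors deposited log2 intensities, 1 per probe set and array, made with RMA per the submitters' processing notes; no source used here states its version or which arrays were normalized together. Per the labels' protocols, RNA of 30000 sorted cells was extracted and 18 ng was amplified with a NuGEN kit. The 3 arrays do not share 1 distribution: SDs over probe sets were 1.57 in beta cells, 1.97 in deleted and 2.02 in wild-type ductal cells. Of 35556 probe sets the platform annotation gave 1 gene for 21789, several for 1621 and none for 12146; 21698 matched RefSeq (GRCm38.p6) by gene ID. The probe set with the highest mean stood for a gene.

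Genes whose higher level of 2 exceeded that array's floor entered a comparison, and 2-fold differences were counted over all such genes. Where 1 level was below the floor, folds are lower bounds against it. With 1 array per group no test was run. Members and lists were chosen with earlier results of these data known. All measured members are named, other pathway genes where 2-fold apart in a comparison, the 2 nearest genes by pattern of each member 2-fold apart (left out for C1qb and C1qc), and markers that define a list or depart from it. Alternatives were other floors, folds of 1.5 and 4, quantile normalization, centring, a loess trend (span 0.3) and the mean of probe sets. The steps were tested on simulated data. Software was Python 3.11.15, statsmodels 0.14.6, numpy 2.4.6, matplotlib 3.10.9 and pandas 2.3.3.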

Additional observations from a re-analysis of the deposited data

How the results depend on the processing

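No paired analysis was possible because each group is 1 array, and for the same reason no array could be left out. Of 129 values for lists recomputed under alternatives, 102 stayed and 27 moved. Of 122 for single members, 104 stayed and 18 moved. A count stayed when it was equal or within 1.5 times. A difference or median stayed when it was within 1.5-fold and on its side of 2-fold. Each measured member had 1 probe set, so the mean of probe sets could not change any value or count of members. Setting the floor elsewhere only decides which genes enter, so it could not change the difference of a member that entered. A count of 0 at 2-fold also could not rise at 4-fold. The 102 and the 104 therefore include values that could not move. No value that was at least 2-fold apart changed sign. Among smaller ones, the median over members between the ductal arrays was 0.02 with no floor, where -0.29 is reported, and Cfb was at -0.05 between them after quantile normalization, where 0.05 is reported. The counts of 4 members lower in beta cells stayed at 4 under all 9 alternatives run. The causes of the moves were not tested, except where fewer genes entered.

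Members at least 2-fold higher in beta cells numbered 1, where 2 are reported, with the floor at the 75th percentile (5 members entered), with levels raised to the floor, at 4-fold and with the loess trend removed, in both beta cell comparisons. The median over members was -1.61 against wild-type and -1.50 against deleted ductal cells with no floor, which lets Cfi in, and -2.38 and -2.35 with the loess trend removed. At 1.5-fold, 1 member, C2, was lower in deleted ductal cells than in the wild-type ones.

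Of the other pathway genes, those higher in beta cells than in wild-type ductal cells numbered 7 with no floor, 2 with the 75th percentile floor, with levels raised and with the loess trend removed, and 0 at 4-fold; those lower numbered 3 at 4-fold and 4 with the loess trend removed. Against deleted ductal cells the number higher was 6 with no floor and at 1.5-fold, 1 with the 75th percentile floor and with levels raised, and 0 at 4-fold. Between the ductal arrays, 1 was higher and 2 were lower at 1.5-fold.

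After quantile normalization the median over all genes was 0.09 for beta against wild-type ductal cells, where -0.11 is reported, and 0.11 against deleted ductal cells, where -0.05 is reported; the loess trend gave 0.02 in each. Of the genes 2-fold apart, 37.3% and 35.8% were higher in beta cells after quantile normalization, where 19.8% and 18.2% were as deposited, and between the ductal arrays 60.3% were higher in deleted cells, where 44.2% were. The members moved by unequal amounts, Serping1 to -3.64, Cfb to -5.00 and C1qb to 2.41 against wild-type ductal cells after quantile normalization. Cfb was at -3.79 and Serping1 at -2.86 against wild-type ductal cells with the loess trend removed, and C1qa at 0.09.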
